A study of Ooceraea biroi with 96 samples.

Results

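In the brain of the clonal raider ant (Ooceraea biroi), 161 of the 13755 genes in the deposited table were at 50% or less of their day 1 level at day 8 in all 4 combinations of genotype and social environment. By the ratio given below, they were not at 25% or less in every combination. The genes were chosen from the counts themselves. Counts were divided by each library's total and expressed as CPM (counts per megacount of the library), means were taken per group, and 0.1 CPM was added before the day 8 mean was divided by the day 1 mean. A day 1 mean of at least 1 CPM was required in every combination, which 8756 genes met. Another 91 genes were at 25% or less in all 4 combinations and serve below as the steeper falling genes. Because the fall from day 1 to day 8 chose the 161 genes, it is described here without a test.

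The clonal raider ant has no queens, and its workers reproduce without mating, so a lineage is a clone. In insects with full metamorphosis the adult nervous system is assembled in the pupa, and young adults of social insects go on maturing after they emerge. Gene expression in the brain of a young adult can therefore change with age as well as with genotype and with the colony in which the ant is reared.

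Ants of either lineage, B or M, were moved as freshly hatched larvae into a social environment of their own or the other lineage, and the whole brain of each individual was sequenced at an age of 8 days or 1 day. Groups are written as genotype in social environment, so that MinB is an ant of genotype M in social environment B. The brains of 8-day-old ants comprised 14 MinM, 12 MinB, 10 BinM and 10 BinB libraries. The brains of 1-day-old ants comprised 20 MinM, 14 MinB, 9 BinM and 7 BinB libraries. The labels name no transgene, drug or deletion in any group. Colony membership of the single ants is not stated in the labels, so p-values measure the spread between individuals and not between colonies.

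Library totals ranged from 10695583 to 26955040 counts at day 8 and from 13904275 to 25341535 counts at day 1. A level of 3 counts corresponds to 0.28 CPM in the shallowest library of day 8 and to 0.216 CPM in that of day 1, for counting error only. In 5 libraries of day 8 and 3 of day 1, expression correlated less with the other libraries of the group than in the rest (median r of at most 0.974 against at least 0.977 at day 8, and at most 0.962 against at least 0.971 at day 1). These libraries stand apart in what follows. They are MinM replicates 6, 9 and 12, MinB replicate 8 and BinM replicate 2 of day 8, and MinM replicate 16, MinB replicate 12 and BinB replicate 9 of day 1. The 2 ages carry different forms of title, so age and sample set cannot be told apart.

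Of the 161 genes, 152 are annotated as protein coding and 9 as long noncoding RNAs (lncRNAs). The lncRNA share was 5.59%, against 2.95% of the 8756 genes of at least 1 CPM. The 161 genes were long, with a median span of 9.29 kb against 4.97 kb, a median of 3561 exonic bases against 2794, and a median of 7 exon blocks against 6. A gene on the other strand overlapped 69 of them (42.9%, against 34.6% of the 8756 genes), and a gene on the same strand overlapped 14 (8.70%, against 7.55%). The library kit marks the strand of each read, but how strand was used in counting is not stated in the labels. Reads of overlapping genes may therefore be shared, and values of such genes are uncertain. Most of the 161 genes were weakly expressed, with a median of 2.33 CPM at day 8 and 8.95 CPM at day 1, against 40.6 CPM and 35.98 CPM over the 8756 genes. At day 1, 29 of them reached at least 100 CPM and 90 were under 10 CPM.

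The rule bounds the fall in each combination, so the 4 medians could differ little. Shares left, here and below, have 0.1 CPM added to both means, which raises the share in weakly expressed genes. The median level left at day 8 was 33.3% of the day 1 level in MinM, 32.4% in MinB, 33.9% in BinM and 31.4% in BinB. The geometric mean over the combinations ran from 14.6% to 46.4% left, with a median of 32.5%. In whole tissue, fewer cells of a type and less RNA per cell cannot be told apart in such a fall. By this ratio every combination was above 25% in 85 of the genes. One of these, LOC105275944, had BinB means of 0.66 CPM at day 8 and 2.94 CPM at day 1. It is above 25% there only with the added 0.1 CPM. In 31 genes 1 combination was at 25% or less, in 24 genes 2 and in 21 genes 3. The largest of a gene's 4 ratios was a median of 1.46 times its smallest, with a range from 1.08 to 4.19 times, and under 1.5 times in 84 of the 161 genes.

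**Figure D1:**
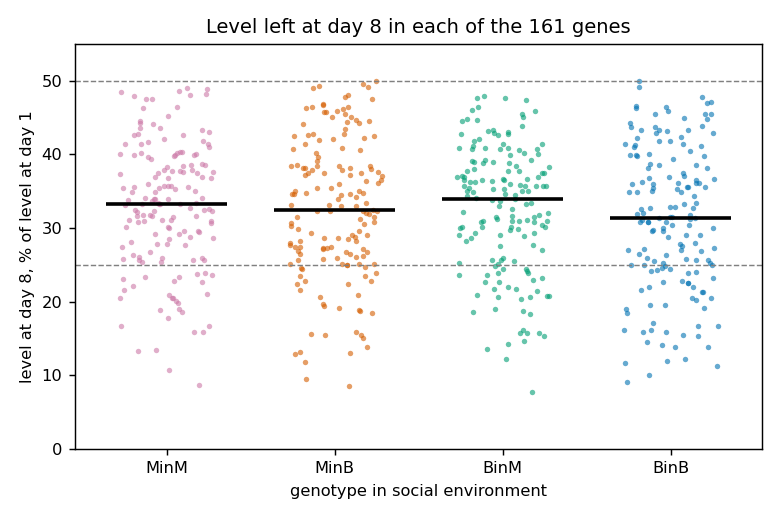
Level at day 8 as a percentage of the level at day 1 (vertical axis), each with 0.1 CPM added. Points are the 161 genes in the 4 combinations of genotype and social environment. Horizontal bars are medians over genes and dashed lines the 50% and 25% limits of the rule. The medians lie between 31.4% and 33.9%, and every combination holds genes both above and below 25%.

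Together the 161 genes took 0.838% ± 0.0884 of a library's counts in MinM brains of day 8 (SD, n = 14), 0.851% ± 0.0865 in MinB (n = 12), 0.853% ± 0.059 in BinM (n = 10) and 0.858% ± 0.0651 in BinB (n = 10). At day 1 they took 2.57% ± 0.682 in MinM (n = 20), 2.35% ± 0.557 in MinB (n = 14), 2.69% ± 0.539 in BinM (n = 9) and 2.64% ± 0.43 in BinB (n = 7). The day 8 share stayed between 0.659% and 1.01% in every library, below the lowest day 1 share of 1.32%. The 10 most abundant genes made up 65.2% of these counts at day 8 and 67.1% at day 1. The median log2 ratio of day 8 over day 1 of all 8756 genes was 0.14 with library totals and 0.01 with TMM factors (trimmed mean of M values), so the falls stand against a slight general rise on the scale used.

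In single brains, 18 of the 161 genes had every day 8 library below every day 1 library of the same combination in all 4 combinations. Over the 8756 genes 71 did so (0.811%). The rule used this contrast, so the count is a description. Groups of fewer brains also separate more easily. In 21 further genes (13.04%, against 1.13% of the 8756 genes) the ages did not overlap in 3 combinations, in 29 (18.01%, against 2.09%) in 2 and in 31 (19.3%, against 3.2%) in 1. In the other 62 genes (38.5%, against 92.8%) no combination had every day 8 brain below every day 1 brain.

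The most abundant of the genes at day 1 was LOC105284088 (protein coding, chromosome 6, 3054034 to 3060459, 3 exon blocks). In MinM brains it had 364 CPM in the lowest, 678 in the median and 919 in the highest library of day 8, against 828.9, 3252 and 7758 CPM at day 1. In BinB brains it had 447, 724 and 867 CPM at day 8, against 1920, 3830 and 6680 CPM at day 1. The ages overlapped in MinM and MinB but not in BinM and BinB. The lowest day 1 brains were of genotype M, but its day 1 groups were also larger, and a larger group reaches further extremes. Between the genotypes the day 1 level differed by a log2 fold change of -0.25 (M minus B, edgeR quasi-likelihood test, adjusted p = 0.527). Per kilobase of exon LOC105284088 was also the highest of the 8 most abundant genes, at 337 CPM per kb at day 8 and 1724 CPM per kb at day 1. LOC105287639 (chromosome 3, 5144164 to 5157426) came next per kilobase, at 262 CPM per kb at day 8 and 661 CPM per kb at day 1.

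The other abundant genes fell less. LOC105276818 (chromosome 2, 8240756 to 8442700, a gene of 202 kb) had 304, 542 and 731 CPM in the lowest, median and highest of the 46 day 8 libraries, against 753, 2287 and 4042 CPM in the 50 day 1 libraries. It kept 25.4% of its day 1 level and the ages did not overlap in any of the 4 combinations. LOC105287636 (chromosome 7, 14620192 to 14671577) kept 26.1%, with 243, 445 and 645 CPM at day 8 against 626.5, 1702 and 3322 CPM at day 1. LOC105277877 (chromosome 1, 5410680 to 5425513) had 327, 543 and 719 CPM at day 8, against 669.5, 1377 and 2796 CPM at day 1. Its exons overlap those of LOC105277876 on the same strand. LOC105277522, LOC105287639, LOC105281406 and LOC105278140 kept 38.3%, 39.7%, 40.6% and 41.1% of their day 1 levels. For LOC105278140 (chromosome 2, 16929798 to 16936497), the 46 day 8 libraries lay between 538.5 and 847 CPM with a median of 715 CPM, and the 50 day 1 libraries between 1135 and 3009 CPM with a median of 1767 CPM. Every day 8 brain was below every day 1 brain for that gene.

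Genes with the smallest share left were weakly expressed and uneven at day 1. LOC105286403 (chromosome 14, 4052679 to 4055850) kept 14.6%, with 0.374, 1.04 and 3.07 CPM in the lowest, median and highest day 8 library, against 0.385, 3.18 and 180.3 CPM at day 1. Its ages overlapped in all 4 combinations. Its day 1 means in MinM and MinB rest on few brains, with 180.3 CPM in MinM replicate 15 and 92.1 CPM in MinB replicate 14. Its medians differ less between the ages than the group means from which the 14.6% is taken. LOC105285711 (chromosome 3, 4057041 to 4065463) kept 15.3%, with a median of 0.14 CPM and a highest value of 0.796 CPM at day 8, against 1.12 and 11.9 CPM at day 1. It had no count in 10 of the 46 day 8 libraries and in none of the 50 day 1 libraries. LOC105287101 (chromosome 12, 9903900 to 9914007) kept 16.1%, with a median of 0.541 CPM at day 8 against 2.53 CPM at day 1. LOC109610666 (chromosome 6, 14692838 to 14702286) kept 16.4%, with a median of 0.14 CPM and no count in 9 libraries at day 8, against 1.43 CPM at day 1. The day 8 levels of LOC105285711 and LOC109610666 are near that of 3 counts in 1 library, and single brains cannot be ordered by them. The lowest day 8 brain of LOC105286403 is also close to that level.

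Among the genes with the largest share left, LOC105285865 (chromosome 4, 2365507 to 2377666) kept 46.4%, with 23.3, 33.9 and 51.3 CPM in the lowest, median and highest day 8 library, against 30.5, 69 and 129 CPM at day 1. LOC105288064 (chromosome 10, 1341633 to 1350668) kept 46%, with 65.4, 146 and 220.4 CPM at day 8 against 143, 302 and 530.4 CPM at day 1. LOC105280772 kept 45.3%, with a median of 1.02 CPM at day 8 against 2.04 CPM at day 1. LOC105284716 (chromosome 4, 15777548 to 15797448) kept 44.7%, with a median of 296 CPM at day 8 against 640.2 CPM at day 1. Over the 4 combinations the share left ran from 44.8% to 48.5% in LOC105285865, from 43.6% to 49.6% in LOC105288064, from 40.2% to 49.1% in LOC105280772 and from 41.9% to 47.6% in LOC105284716.

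The limits of the rule cut through a continuous range. LOC105281651 and LOC105277785 were just inside the 50% limit, with 49.98% left in MinB and 49.99% left in BinB. LOC105287615 and LOC105281711 were just outside it, with 50.1% left in MinM and 50.3% left in MinB. At the other end, LOC105284088 and LOC105279685 were kept among the 161 genes because MinB of the first had 25.1% left and BinM of the second 25.3%. LOC105279685 is weakly expressed, at 0.214 CPM at day 8 and 1.56 CPM at day 1 (means over the groups). Its place among the 161 genes rests on the added 0.1 CPM. LOC105274907 and LOC105274974 counted among the steeper falling genes, with at most 24.8% and 24.9% left.

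**Figure D2:**
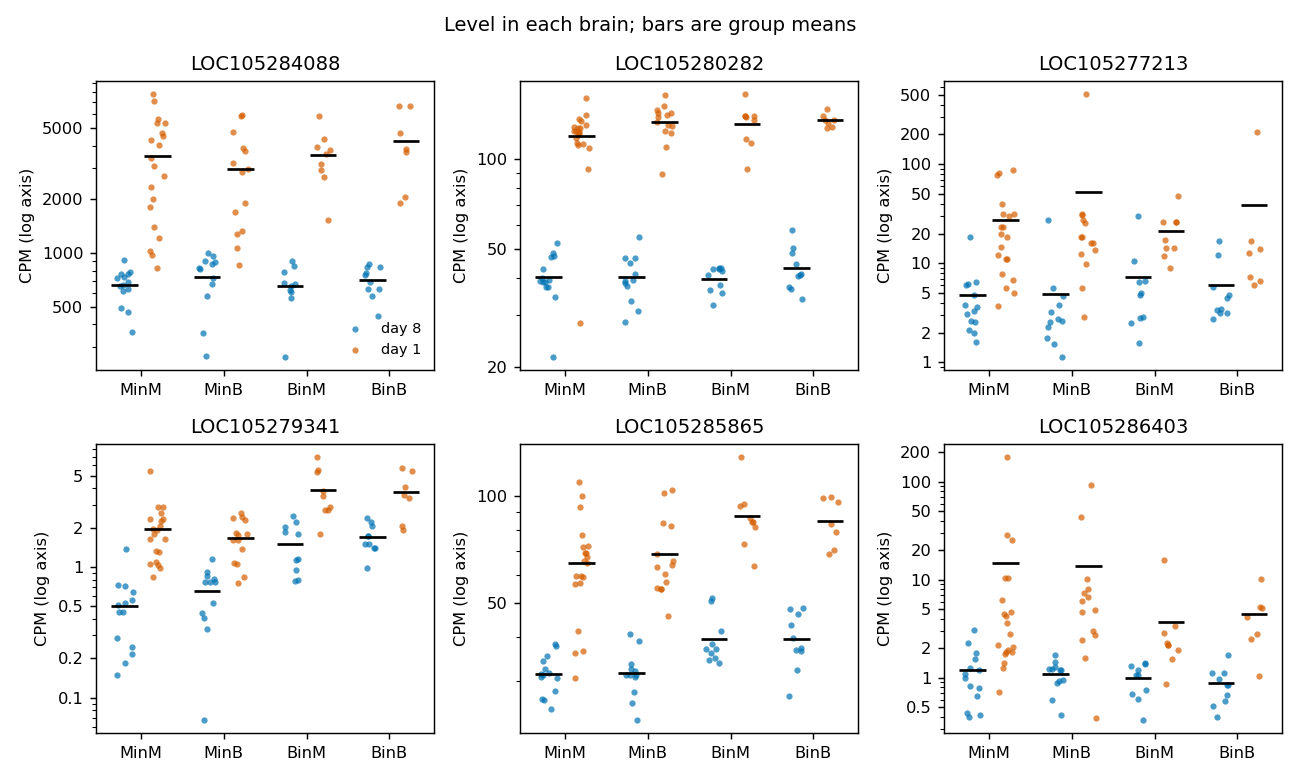
Level in CPM (vertical axis, log scale) of 6 of the genes in every brain (points) of the 4 combinations of genotype and social environment, with day 8 left of day 1; black bars are group means. LOC105280282 separates the ages almost completely, LOC105277213 and LOC105286403 have single day 1 brains far above the rest, and LOC105279341 and LOC105285865 are lower in genotype M than in genotype B at both ages.

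Individuals of a group differed more in these genes than in most. The median standard deviation of log2(CPM + 0.1) within a group was 0.652 over the 161 genes at day 8, against 0.201 over the 8756 genes, and 0.628 against 0.21 at day 1. At day 8 155 of the 161 genes, and at day 1 all of them, lay above the median of the 8756 genes. Weak expression raises this measure. A high day 1 brain raises both this measure and the day 1 mean that the rule used, and the part of either was not tested. The difference was also present within classes of level, which leave out genes under 1 CPM at the age in question. Among genes of at least 100 CPM the median was 0.262 over 19 of the genes against 0.151 over 2372 genes at day 8, and 0.417 over 29 against 0.165 over 2266 at day 1. The median over the steeper falling genes was 0.774 at day 8 and 1.254 at day 1. With a constant of 1 CPM in place of 0.1, the 161 genes had a median of 0.343 at day 8, above the 0.320 of the steeper falling genes, so the order of these 2 sets at day 8 turned with the constant. At day 1 the medians were then 0.516 for the 161 genes and 0.939 for the steeper falling genes. These are descriptions with no test.

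**Figure D3:**
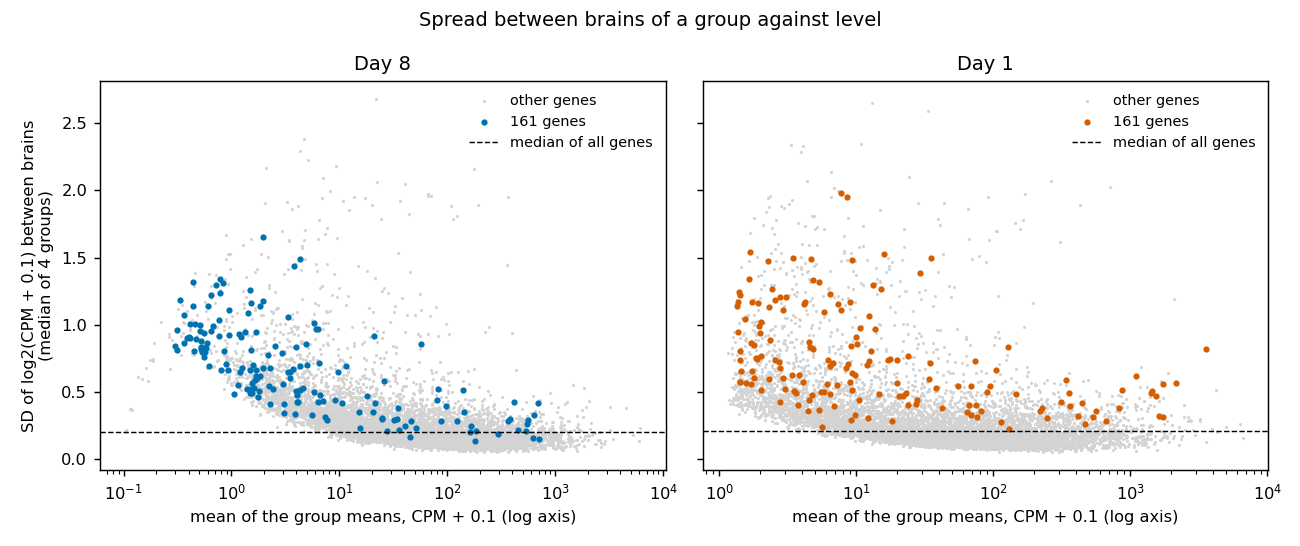
Standard deviation of log2(CPM + 0.1) between brains of a group (vertical axis, median of the 4 groups of an age) against the mean level in CPM + 0.1 (horizontal axis, log scale), at day 8 (left) and day 1 (right); coloured points are the 161 genes, grey points the other genes of at least 1 CPM at day 1, and the dashed line the median of all 8756 genes. Of the coloured points 155 lie above the line at day 8 and all 161 at day 1.

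The extremes show how different the genes are. LOC105280282 (chromosome 1, 1853642 to 1892156) had the smallest spread at day 1 among genes of at least 10 CPM. Its day 8 levels were 21.7, 40.2 and 57.9 CPM (lowest, median, highest) and its day 1 levels 28.2, 129 and 165 CPM. The lowest day 1 value came from MinM replicate 16, which stands apart, and the next was 89.2 CPM, above every day 8 brain. LOC105275581 (chromosome 8, 10116102 to 10136429) was nearly as even, with 126.5, 181 and 231 CPM at day 8 and 235, 473 and 609.9 CPM at day 1, and its ages did not overlap.

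LOC105277213 (chromosome 3, 15133436 to 15142232) and LOC105281851 (chromosome 6, 2893086 to 2894725) had the largest spread at day 1 among the genes of at least 10 CPM at that age. LOC105277213 had 1.13, 3.42 and 29.9 CPM at day 8, against 2.86, 16.5 and 509 CPM at day 1. LOC105281851 had 0.128, 1.9 and 51.1 CPM at day 8, against 0.555, 6.46 and 176.5 CPM at day 1. The highest day 1 value of both came from MinB replicate 12, which stands apart, and the second highest, at 210.7 and 125.7 CPM, from BinB replicate 2. Their ages overlapped in all 4 combinations, and their group means at day 1 rest on few brains.

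The genes also varied together from brain to brain, weakly at day 8. After group means were removed, the median correlation between pairs of the 161 genes was 0.0842 at day 8, against 0.0128 for pairs of the 8756 genes and 0.0655 for pairs of the steeper falling genes. At day 1 it was 0.218, against 0.0632 for the 8756 genes and 0.417 for the steeper falling genes. With the mean of the other 160 genes, 41 genes correlated at over 0.5 at day 8 and 69 at day 1. A correlation below 0 was found for 26 genes at day 8 and 7 at day 1. These correlations are over 46 libraries of day 8 and 50 of day 1 and carry no test, since values of a library share its depth and composition. Without the libraries that stand apart, the median over pairs was 0.0573 at day 8, against 0.0201 for the 8756 genes. At day 1 it was 0.215, against 0.0575. At day 8, 32 genes then correlated at over 0.5 with the mean of the others and 34 below 0. At day 1 these counts were 64 and 8.

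A brain's mean deviation was similar for both sets of falling genes, more so at day 1. The sets are not independent, since the same fall from day 1 to day 8 chose both and the limit between them cuts a continuous range. How much of their agreement comes from this choice was not tested. The mean deviation of the 161 genes from the group mean correlated with that of the 91 steeper falling genes at r = 0.82 (Spearman's rho 0.809, n = 46) at day 8 and r = 0.98 (rho 0.967, n = 50) at day 1. Without the 2 brains farthest from the median the day 8 value was 0.758 and the day 1 value 0.975. Within single groups it ran from 0.494 in BinB to 0.955 in MinM at day 8, and from 0.916 in BinM to 0.994 in MinB at day 1. Without the libraries that stand apart it was 0.663 at day 8 and 0.981 at day 1. With library depth the mean deviation correlated at 0.348 at day 8 and 0.0662 at day 1. With 192 genes that at least doubled by day 8 in every combination it correlated at 0.64 at day 8 and -0.27 at day 1. Without the libraries that stand apart this last pair was 0.489 at day 8 and -0.39 at day 1. The part of depth in these relations was not tested.

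**Figure D4:**
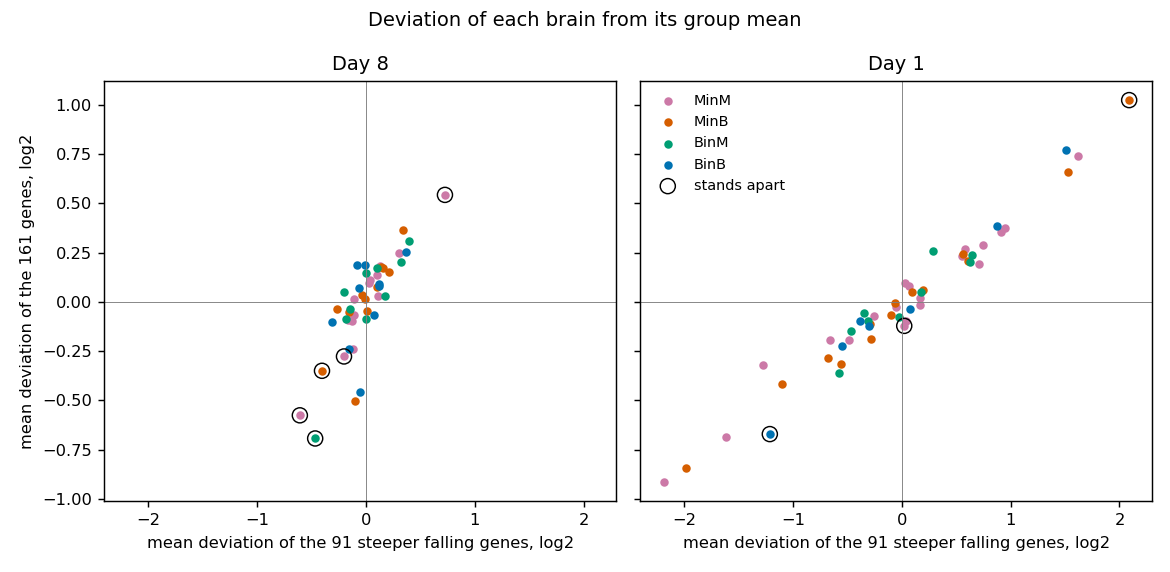
Mean deviation of the 161 genes from the group mean (vertical axis, log2) against that of the 91 steeper falling genes (horizontal axis, log2) in each brain at day 8 (left) and day 1 (right); colours are the combinations of genotype and social environment, and circles mark libraries that stand apart. The day 8 brains lie close to 0 (r = 0.82), and the day 1 brains spread along a line (r = 0.98). Both sets were chosen by the same fall from day 1 to day 8 and are not independent.

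The brains at both ends of this measure are given as a description, since the genes were chosen for lower levels at day 8. At day 1 MinM replicate 17 lay lowest, with a mean deviation of -0.91 on the log2 scale. In 86 of the 161 genes its level was nearer to the day 8 median than to the day 1 median of its combination. MinB replicate 4 followed at -0.84 with 65 genes, and MinM replicate 5 at -0.68. BinB replicate 9, which stands apart, was at -0.67 with 62 genes. The median day 1 brain had 14 such genes in MinM, 19.5 in MinB, 8 in BinM and 17 in BinB. At the high end of day 1 were MinB replicate 12, which stands apart, at 1.02, BinB replicate 2 at 0.77 and MinM replicate 9 at 0.74. At day 8 every brain was nearer to the day 8 median in at least 111 of the genes.

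The contrast of genotype M with genotype B within an age did not enter the rule and could be tested. edgeR's quasi-likelihood test was run on all genes, and a gene was called where its p, adjusted by the method of Benjamini and Hochberg, was under 0.05. At day 1, 12 of the 161 genes were called, 3 higher and 9 lower in genotype M (7.45%). Of the 9834 genes tested, 14.8% were called, 7.24% higher and 7.52% lower. The genes tested at either age include some under 1 CPM in a day 1 group, which the rule leaves out. With library totals in place of TMM factors, 1 gene was called higher and 9 lower (6.21%), beside 1326 of the 9834 genes tested. With the replicate number as a block, 1 was called higher and 4 lower (3.11%), beside 992 of the 9834. The main fit called 1452 of the 9834. The median 95% interval of a gene's log2 fold change reached 0.41 to either side of the estimate for the 161 genes, against 0.15 over all genes tested, so differences of the same size were harder to detect here.

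The largest decrease in genotype M at day 1 was that of LOC105279341 (chromosome 1, 23625640 to 23636928, 20 exon blocks). It had 0.75, 1.77 and 5.44 CPM in the lowest, median and highest of 34 genotype M brains, against 1.79, 3.53 and 6.98 CPM in 16 genotype B brains. The groups overlapped, but the genotype B median lay above all but 1 of the genotype M brains. The log2 fold change was -1.08 ± 0.19 (SE, edgeR adjusted p = 2.95e-05). Exons of this gene overlap those of LOC105279340 on the other strand.

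LOC105279546 (chromosome 9, 12715315 to 12725115) was lower in genotype M at day 1, with 0.75, 4.73 and 20.6 CPM in genotype M against 3.43, 13.1 and 18.9 CPM in genotype B (log2 fold change -0.99 ± 0.27, edgeR adjusted p = 0.00877). At day 8 its medians were 1.19 CPM in genotype M and 1.46 CPM in genotype B, and it was not called (adjusted p = 0.461). Its exons overlap those of LOC113562549. LOC105275944 (chromosome 1, 12771354 to 12796167) was close to the threshold at day 1, with 0.141, 1.02 and 4.04 CPM in genotype M against 0.553, 1.46 and 7.96 CPM in genotype B (log2 fold change -0.86 ± 0.31, edgeR adjusted p = 0.0495). Its highest value came from BinB replicate 1, and without that brain the log2 fold change was -0.64 and the call was lost (adjusted p = 0.148). Among other alternatives it was also lost without a filter on low counts, without MinM replicate 15 and without MinB replicate 14, and over all alternatives the edgeR or DESeq2 adjusted p ran from 0.0133 to 0.148. The other 6 genes called lower differed by -0.37 to -0.83 on the log2 scale.

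Of the 3 genes called higher in genotype M at day 1, LOC105277064 (chromosome 3, 12539149 to 12544555) kept its call in all 10 alternatives. It had 7.43, 21.4 and 56.9 CPM in genotype M, against 8.15, 14.5 and 22.9 CPM in genotype B, with a log2 fold change of 0.74 ± 0.19 (edgeR adjusted p = 0.00445). The ranges overlapped, but the highest genotype M brain was far above the highest genotype B brain. At day 8 its medians were 2.78 CPM in genotype M and 3.81 CPM in genotype B and it was not called (adjusted p = 0.775).

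The other 2 calls rest on few brains. LOC105286403 had 0.385, 4.38 and 180.3 CPM in genotype M, against 0.865, 2.64 and 16.2 CPM in genotype B at day 1 (log2 fold change 1.82 ± 0.64, edgeR adjusted p = 0.0465). Without MinM replicate 15, its highest brain, the log2 fold change was 1.18 (adjusted p = 0.108), and without MinB replicate 14, the next highest, it was 1.42 (adjusted p = 0.103). With DESeq2 it was 0.74 (adjusted p = 0.207), and among other alternatives the call was lost too with library totals and without a filter. LOC105282443 (chromosome 4, 17444337 to 17450518) had 0.165, 2.52 and 21.3 CPM in genotype M, against 0.415, 1.41 and 6.11 CPM in genotype B (log2 fold change 1.04 ± 0.37, edgeR adjusted p = 0.0466). Without MinB replicate 14 its log2 fold change was 0.76 (adjusted p = 0.108), without MinM replicate 15 it was 0.95 (adjusted p = 0.0625), and with library totals or without a filter it was not called either. Exons of this gene overlap those of LOC105282452. Neither was called without the libraries that stand apart, at adjusted p = 0.0626 for LOC105286403 and 0.105 for LOC105282443.

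At day 8, 137 of the 161 genes passed the filter on low counts, and the other 24 were at most at 0.473 CPM. Of the 137, 7 were called (5.11%), 3 higher and 4 lower in genotype M, while 8.45% of the 9472 genes tested were called, 4.16% higher and 4.29% lower. LOC105279341 was again lowest relative to genotype B, with 0.0676, 0.53 and 1.38 CPM in 26 genotype M brains against 0.778, 1.61 and 2.44 CPM in 20 genotype B brains (log2 fold change -1.46 ± 0.21, edgeR adjusted p = 4.52e-07). Its genotype B median lay above every genotype M brain, but the lowest of these, at 0.0676 CPM, was under the level of 3 counts. LOC105280507 (chromosome 12, 3461466 to 3467560) had 0.21, 0.859 and 1.69 CPM in genotype M against 0.842, 1.67 and 3.71 CPM in genotype B (log2 fold change -1.17 ± 0.17, edgeR adjusted p = 1.49e-06). LOC105275634 (chromosome 8, 9455241 to 9464847) had 1.67, 4.54 and 7.89 CPM in genotype M against 3.02, 6.67 and 12 CPM in genotype B (log2 fold change -0.57 ± 0.14, edgeR adjusted p = 0.0039).

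In the other direction, LOC105275010 (chromosome 7, 16110244 to 16118603) was higher in genotype M at day 8, with 0.973, 2.17 and 5.91 CPM in genotype M against 0.0935, 1.03 and 2.47 CPM in genotype B (log2 fold change 1.04 ± 0.21, edgeR adjusted p = 0.000453). LOC105287986 (chromosome 14, 8227701 to 8236595) had 0.568, 1.78 and 3.19 CPM in genotype M against 0.487, 1.04 and 3.18 CPM in genotype B (log2 fold change 0.59 ± 0.16, edgeR adjusted p = 0.013). The genotype B brain at 3.18 CPM was BinM replicate 2, which stands apart. LOC105278065 (chromosome 1, 19183554 to 19192773) differed least, with medians of 16.3 CPM in genotype M and 13.8 CPM in genotype B (log2 fold change 0.24 ± 0.07, edgeR adjusted p = 0.0292), and it lost its call with library totals (adjusted p = 0.0509).

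The 2 ages share no library, and 3 of the 137 genes tested at both were called at both with the same sign (2.19%). Of all 9404 genes tested at both ages 3.77% were. The 3 genes were 42.9% of the calls at day 8 and 25% of those at day 1, against 44.4% and 24.4% over all genes called. All 3 were lower in genotype M. They are LOC105279341, LOC105280507 (log2 fold change -0.59 ± 0.175 at day 1, edgeR adjusted p = 0.0167) and LOC105285865. With the replicate number as a block at day 1, LOC105280507 (edgeR adjusted p = 0.116) and LOC105285865 (edgeR adjusted p = 0.0735) were not called. LOC105285865 had 23.3, 31.2 and 40.8 CPM in genotype M against 27.1, 37 and 51.3 CPM in genotype B at day 8 (log2 fold change -0.31 ± 0.06, edgeR adjusted p = 0.000534). At day 1 it had 30.5, 64.2 and 109.9 CPM in genotype M against 63.6, 84.5 and 129 CPM in genotype B (log2 fold change -0.37 ± 0.11, edgeR adjusted p = 0.0213). Exons of this gene overlap those of LOC109611394 on the other strand. Whether the genotype difference itself changed with age was not tested, because the rule used each group's change with age.

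**Figure D5:**
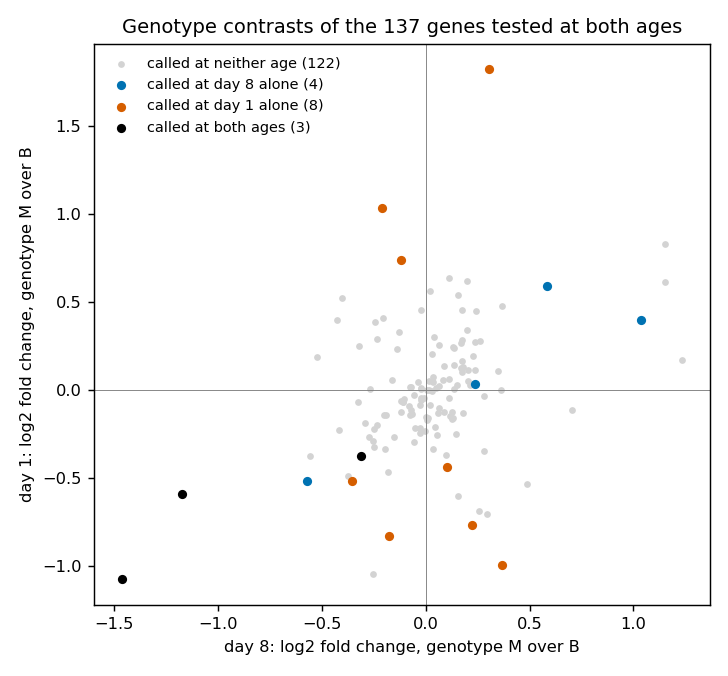
Log2 fold change of genotype M over genotype B at day 8 (horizontal axis) and at day 1 (vertical axis) for the 137 genes tested at both ages (points), coloured by whether edgeR called them (adjusted p under 0.05). Calls at both ages number 3 (black), calls limited to day 8 number 4, calls limited to day 1 number 8, and 122 genes were not called.

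No gene of the 161 was called for social environment. In the contrast of environment M with environment B, edgeR called 0 of 137 genes at day 8, where 0% of the genes tested were called, and 0 of 161 at day 1, where 0.0102% were called. At an unadjusted p under 0.05 there were 10 genes at day 8 (7.30%, against 3.32% of all genes tested) and 4 at day 1 (2.48%, against 6.66%). DESeq2 also called 0 at both ages, with 11 genes at day 8 and 6 at day 1 at an unadjusted p under 0.05. A p above the threshold does not show that the environments act alike. The 95% interval of the difference lay within 1.5-fold either way for 83 of 137 genes at day 8 and 86 of 161 at day 1, and within 2-fold for 126 at day 8 and 129 at day 1.

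The gene with the lowest p in this contrast was LOC105280281 (chromosome 1, 1894429 to 1901254) at day 1. It had 0.904, 3.2 and 7.15 CPM in 29 brains of environment M against 1.74, 3.25 and 71.5 CPM in 21 brains of environment B (log2 fold change -0.85 ± 0.32, edgeR adjusted p = 0.694). The medians were nearly equal, and the highest value came from MinB replicate 12. Without the libraries that stand apart the log2 fold change was -0.08 (edgeR adjusted p = 1). At day 8 it was LOC105275010, with 0.0935, 1.65 and 2.4 CPM in 24 brains of environment M against 0.793, 1.89 and 5.91 CPM in 22 brains of environment B (log2 fold change -0.70 ± 0.21, edgeR adjusted p = 0.998).

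The interaction asks whether the difference between environments M and B was the same in both genotypes. edgeR called 0 of 137 genes at day 8 and 0 of 161 at day 1, where 0% of the genes tested were called at either age. At an unadjusted p under 0.05 there were 7 genes at day 8 (5.11%, against 2.35% of all genes tested) and 1 at day 1 (0.621%, against 6.24%). DESeq2 called 0 at both ages, with 7 genes at day 8 and 3 at day 1 at that level. The lowest p was that of LOC105285890 at day 8 (log2 difference 0.69 ± 0.32, edgeR adjusted p = 1) and that of LOC105284538 at day 1 (log2 difference 0.57 ± 0.23, edgeR adjusted p = 0.723). At day 1 the median interaction was 0.14 on the log2 scale over the 161 genes, against 0.01 over all genes tested, and 0.30 without the libraries that stand apart, where 9 genes (5.59%, against 3.41% of all genes tested) had an unadjusted p under 0.05. Without BinB replicate 1 it was 0.08. These genes vary together between brains and are not independent, so the median carries no test.

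Some of the genes lie side by side. In 9 places 2 of them are direct neighbours on a chromosome, 7 times on the same strand, and no run is longer than 2. The pair LOC105277884 and LOC105277877 on chromosome 1 kept 35.2% and 37% and varied together between brains, with r = 0.718 over 46 libraries at day 8 and r = 0.868 over 50 libraries at day 1. LOC105276495 and LOC105276494 on chromosome 6 are 408 bases apart and kept 43% and 37.8%. LOC105276495 had 34.3, 100.4 and 136.5 CPM in the lowest, median and highest day 8 brain, against 136.5, 210 and 415 CPM at day 1. LOC105276494 had 2.24, 8.74 and 20.4 CPM at day 8, against 10.5, 22.7 and 39.3 CPM at day 1. Their correlation was 0.51 at day 8 and 0.499 at day 1.

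Not every pair moved together, and several correlated more at day 1 than at day 8. LOC105287562 and LOC105287639 on chromosome 3 kept 29.4% and 39.7%, with r = 0.449 at day 8 and r = -0.085 at day 1. The lncRNA LOC105281405 lies inside LOC105281406 on the same strand, and their correlation was 0.0437 at day 8 and 0.135 at day 1. LOC105287596 and LOC105287585 on chromosome 7 overlap on opposite strands and correlated at 0.446 at day 8 and 0.846 at day 1. LOC109610666 and LOC105285890 on chromosome 6 overlap on the same strand and correlated at 0.211 at day 8 and 0.666 at day 1. LOC105285890 had a median of 6.33 CPM at day 8 and 29 CPM at day 1. Counts of overlapping pairs may be shared. LOC105275592 lies 1906 bases from LOC105275581, and the 2 genes correlated at 0.291 at day 8 and 0.752 at day 1. For LOC105276251 and LOC105276258 on chromosome 9 the correlation was 0.415 and 0.396, and for LOC105280282 and LOC105280281 it was 0.372 and 0.452.

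Among the 9 lncRNAs, LOC113562149 (chromosome 6, 16221876 to 16223905) was the most abundant at day 1. It had 0.288, 4.09 and 8.31 CPM in the lowest, median and highest day 8 brain, against 4.17, 16.6 and 35.5 CPM at day 1, and kept 23.8% to 26.2% in the 4 combinations. LOC105277884 (chromosome 1, 5407063 to 5407322) had 0.427, 2.08 and 4.85 CPM at day 8, against 1.32, 6.08 and 14.2 CPM at day 1. LOC113562627 (chromosome 9, 15577696 to 15578092) had 0.42, 1.58 and 3.24 CPM at day 8, against 2.09, 4.13 and 8.27 CPM at day 1. Exons of both overlap those of a gene on the other strand, LOC105277885 and LOC105279498. All 3 lncRNAs kept between 23.8% and 44.1% in each combination.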

How the data were processed

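The 96 libraries each hold 1 brain. Tri reagent and a KAPA stranded mRNA kit were used, per the labels' protocols. The deposited values are raw counts per gene, and all 96 columns were used. The authors' tools were STAR 2.7.8a and featureCounts, per the submitters' processing notes. For the build, strand setting and multi-mapped reads: not given in the sources used here. Coordinates are those of the deposited table. For all 161 genes they equal those of the Obir_v5.4 RefSeq annotation, which gave gene class, chromosome and exons.

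Groups were taken from the labels. Replicate numbers are those of the titles at day 1 and follow accession order at day 8. Within each age, a 4-group model was fitted to all genes with edgeR 4.0.16 in R 4.3.3 (TMM factors, filterByExpr with a minimum count of 10, robust quasi-likelihood test, Benjamini-Hochberg adjustment). Standard errors and 95% intervals were derived from the F statistics. Alternatives were DESeq2 1.42.0, other size factors, other filters, a replicate block, and fits without libraries that stand apart or without single brains. The procedure was tested on simulated data with 200 changed genes. Spread and correlations used log2(CPM + 0.1). A library stands apart where its median correlation with its group is more than 5 median absolute deviations below the median of its age. Floors of 3 counts cover counting error only.

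The genes named are the 8 most abundant, the extremes of fall, of spread and of genotype difference, those nearest to the limits of the rule, the lowest p for environment and interaction, neighbouring pairs and 3 lncRNAs. Genes, lists and tests were chosen with earlier results of these data known. Gene products, sequences and cell type markers were not used here, since the tables at hand pair no product names with these identifiers. The lists of functions and markers were therefore void, no role is given to a gene, and the labelled tissue was not checked against markers.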

Additional observations from a re-analysis of the deposited data

Results flagged for a closer look

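Only the 4 groups of 7 to 10 brains, BinM and BinB at both ages, were examined, and the larger groups of genotype M were not. In each of the 4 groups, each named gene was checked for a highest or lowest brain far from all others (Dixon's test at the 95% level). Of 192 such groups, 33 were picked out, 30 by a high and 3 by a low brain, in 22 genes. Chance alone picks out about 1 group in 20, here 9.6, if values are normally distributed and groups are independent. Neither holds here. The test used CPM without a log scale, some genes were named for their extremes, and single brains were picked out in several genes. The 33 groups therefore cannot be read as an excess over 9.6. No cause was examined.

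In BinB replicate 2 of day 1, 8 genes were far above the next brain. LOC105277213 was at 210.7 CPM against 16.9, LOC105281851 at 125.7 against 7.89, LOC105276251 at 52.7 against 23.3 and LOC105287596 at 36.2 against 4.48. LOC105287585 was at 13.6 CPM against 4.74, LOC105285711 at 11.9 against 1.95, LOC105280772 at 10.6 against 3.18 and LOC105279685 at 7.22 against 1.05. This library does not stand apart from its group over all genes. In BinB replicate 1 of day 1, LOC105287101 was high at 22.2 CPM, and LOC105285890 was low at 19.8 CPM.

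In BinM replicate 3 of day 1, LOC105285865 reached 129 CPM, LOC105277213 47.5, LOC105280507 9.89 and LOC105285711 2.59. In BinM replicate 8 of day 1, LOC105281651 reached 127 CPM, LOC105277884 14.2 and LOC109610666 11.5. In BinM replicate 6 of day 1, LOC105286403 was at 16.2 CPM against 3.38 in the next brain.

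At day 8, BinM replicate 2, which stands apart, was low in LOC105276495 at 34.3 CPM and high in LOC105280507 at 3.27 and LOC105287986 at 3.18. BinM replicate 10 was high in LOC105277213 at 29.9 CPM and LOC105281851 at 6.04. BinM replicate 9 was high in LOC105281405 at 3.16 CPM and LOC105279685 at 0.606, BinM replicate 1 in LOC105287636 at 555 CPM, and BinM replicate 3 in LOC109610666 at 0.474 CPM. BinB replicate 4 was low in LOC105276495 at 53.3 CPM and high in LOC105287986 at 1.65. BinB replicate 7 was high in LOC105281406 at 949 CPM, replicate 3 in LOC105280772 at 4.08, replicate 9 in LOC105280281 at 2.01 and replicate 1 in LOC109610666 at 1.87.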

How the results depend on the processing

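The counts of genes called for genotype stayed within 1.5 times under all alternatives but 1, at 6 to 8 at day 8 and 9 to 14 at day 1, and those for environment and interaction stayed at 0. Under the same alternatives, genotype calls over all genes tested ran from 753 to 942 at day 8 and from 1304 to 1668 at day 1. The exception is the fit with the replicate number as a block, possible at day 1 only, which called 5 of the 161 genes and 992 of all 9834 genes tested. Under the block LOC105280507 (adjusted p = 0.116), LOC105285865 (0.0735), LOC105275944 (0.0662), LOC105282443 (0.342) and LOC105286403 (0.682) were not called at day 1, which leaves LOC105279341 of the 3 genes called at both ages. The labels do not say whether the numbers pair brains. Over 52 pairs of the same number in different groups the median correlation of deviations was 0.0402 (range -0.571 to 0.694). Between other numbers the median was -0.00252. The correlation was over 0.1 in 19 of the 52 pairs, and 7 of 44 libraries correlated best with their own number. Whether the numbers mark a shared batch or colony was not tested. Leaving out MinM replicate 15, MinB replicate 14 or BinB replicate 1 of day 1 was added after the data were seen and gave 9, 9 and 11 calls. Over 16 fold changes of called and named genes none changed sign in any alternative, and 21 of the 132 alternative values lost their call. The rule found 148 genes with group medians (120 of the 161), 203 with TMM factors (154), 132 with a constant of 1 CPM (94), 165 without the libraries that stand apart (146) and 91 with a day 1 minimum of 5 CPM. With a constant of 1 the median spread was 0.343 at day 8 and 0.516 at day 1. Depth limits the 24 genes not tested at day 8.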

Other observations

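The 161 genes lie on all 14 chromosomes. They make up between 0.631% of the genes of at least 1 CPM on chromosome 13 (2 of 317) and 2.63% on chromosome 1 (23 of 874). Chromosome 6 holds 18 of them (2.56%) and chromosome 4 another 18 (2.36%). Between these extremes the shares differ by few genes, and no test was made.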
